A study of Mus musculus with 9 samples.

Results

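Muscle with fewer nuclei was compared with control muscle by pooling both mouse models in which fusion of new nuclei was blocked after birth. The 6 Δ1w and Δ2w arrays, called deleted mice here, were set against the 3 control arrays, which are all 9 arrays of the series. The question was which transcripts differ when a fiber has fewer nuclei, whichever week fusion stopped. The features were the 22206 gene rows among the 28846 rows of the table, each a log2 signal of the Clariom S Mouse array, on which a difference of 1 is a 2-fold difference. One array was run per mouse on total RNA of the tibialis anterior (TA), a fast muscle at the front of the lower leg, at P28.

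All Δ1w and Δ2w mice carried Pax7creER, a tamoxifen-inducible Cre driven from the Pax7 locus of satellite cells, with tamoxifen at P0 in Δ1w mice and at P6 in Δ2w mice. No control mouse carried Pax7creER. The labels record no tamoxifen for controls, whereas the methods state that every mouse received it. Each of the 9 mice had a floxed allele of *Mymk*. Its other allele was recorded as LacZ in 1 of 3 Δ1w, 3 of 3 Δ2w and 2 of 3 control mice, and as floxed in the others. The mTmG reporter was recorded in all mice except Δ1w replicate 8. For the labels' mean number of nuclei per myofiber, Δ1w had 55, Δ2w had 100 and control had 233. By the study's methods nuclei were counted in fibers of another leg muscle, the extensor digitorum longus. The study made its Δ2w count of 100 in mice older than P28, the age of these arrays. Because Cre acts in satellite cells, nuclei inside a myofiber before tamoxifen kept any floxed allele uncut, beside the LacZ allele where one was recorded.

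A myofiber is a single cell with many nuclei, and in the first weeks of life it gains nuclei by fusion of satellite cells, the stem cells that lie on its surface. Myomaker, encoded by *Mymk*, is the membrane protein that a satellite cell or myoblast needs in order to fuse. When fusion is blocked the fiber keeps growing with the nuclei it has. The study measured more cytoplasm per nucleus in Δ2w fibers from P28 on, but not in another model blocked later. The muscle also holds fibroblasts, vessels, nerve endings and immune cells, and in bulk tissue fewer cells of a type and less RNA per cell cannot be told apart.

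*Mymk* had log2 signals of 8.99, 7.49 and 7.94 in Δ1w muscle and 8.39, 7.67 and 6.70 in Δ2w muscle, against 11.82, 12.03 and 11.61 in control muscle. Every deleted mouse was at least 2.62 below the lowest control. *Mymk* fell by 3.96 on the log2 scale (standard error 0.37, 95% interval −4.77 to −3.15, adjusted p = 0.00219 from limma), with an exact two-sided permutation p of 0.0119, the smallest that the 84 ways of choosing 3 controls among 9 mice allow. No source used here says whether its probes lie in the deleted exons. Of 10 markers that define skeletal muscle, 0 were called. Their mean log2 signal was 18.45 to 18.56 over deleted mice and 18.41 to 18.57 over control mice, so the defining muscle transcripts were bright in all 9 arrays.

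Across all gene rows, 62 differed between the pooled deleted mice and control at an adjusted p under 0.05, which is 0.279% of rows tested. Of these, 44 were higher (0.198%) and 18 were lower (0.0811%), and 52 of the 62 changed by at least 1 on the log2 scale. Without the adjustment, 2459 rows had a p under 0.05 (11.1%). In 1345 rows (6.06%) the 6 deleted mice did not overlap the 3 controls, 713 of them with all deleted mice above (3.21%) and 632 with all below (2.85%). All 62 called rows were among these 1345. A gene symbol was attached to 58 of the called rows, and 4 had none. The rest concerns 57 genes, of which 41 rose and 16 fell, since the other called row, of the predicted gene *Gm21992*, is the dimmer of 2 and the brighter one missed the threshold (−0.75, adjusted p = 0.0712). The median change over all rows was −0.00057, after the authors' normalization across arrays.

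**Figure D1:**
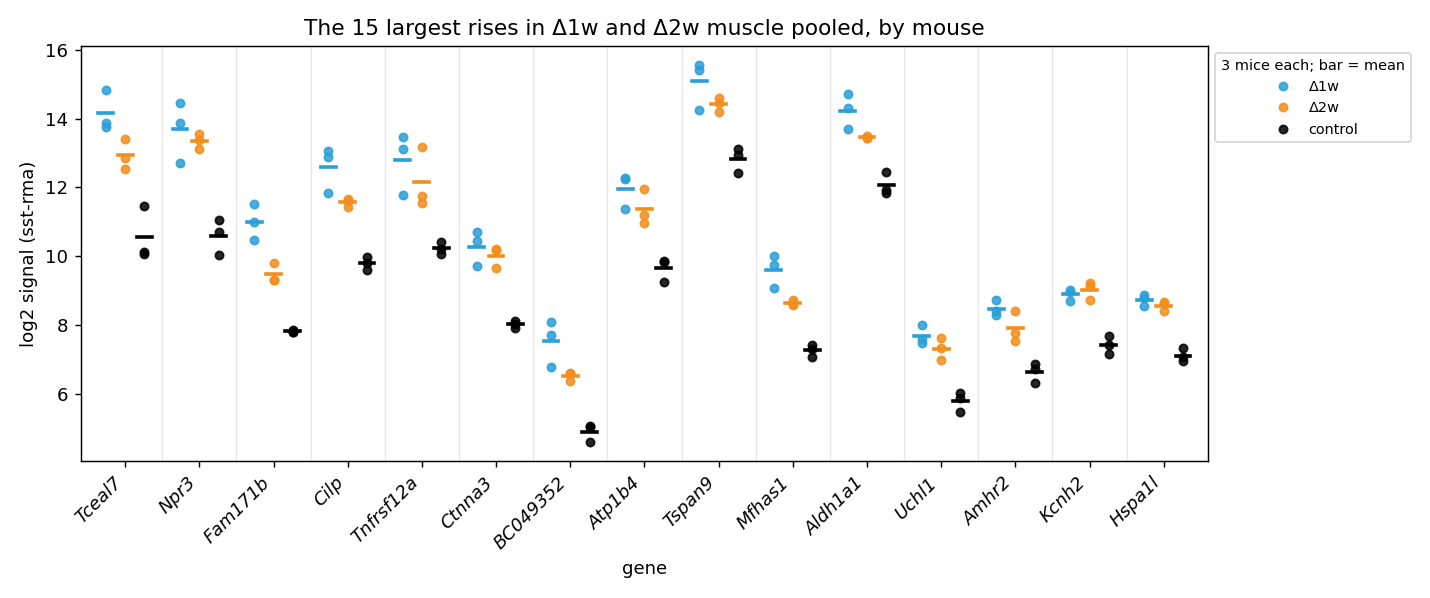
Log2 signal of the 15 genes with the largest called rises, 1 dot per mouse and a bar at each mean (3 mice each), with Δ1w, Δ2w and control from left to right within a gene. In each gene all 6 deleted mice lie above all 3 controls. In *Fam171b* the Δ1w mice (10.47 to 11.52) also lie above the Δ2w mice (9.31 to 9.81). The same order holds in *Tceal7*, *Cilp*, *BC049352*, *Mfhas1* and *Aldh1a1*.

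The largest rises were those of *Tceal7* and *Npr3*. *Tceal7*, an X-linked member of a family related to transcription elongation factors, had log2 signals of 13.88, 14.82 and 13.75 in Δ1w and 12.85, 13.42 and 12.54 in Δ2w muscle, against 11.47, 10.12 and 10.07 in control muscle. It rose by 2.99 (standard error 0.44, adjusted p = 0.0179), or 7.95-fold. One control mouse, replicate 1, was more than 1 above the other two controls and was still below every deleted mouse. *Npr3*, the receptor that clears natriuretic peptides and binds osteocrin, had 12.72, 14.46 and 13.88 in Δ1w and 13.39, 13.12 and 13.54 in Δ2w muscle, against 11.04, 10.04 and 10.72 in control muscle. It rose by 2.92 (95% interval 2.20 to 3.63, adjusted p = 0.00319), or 7.55-fold, and the means of both models lay within 0.34 of each other. Of the 9 measured genes of the natriuretic peptide system, 1 was called (0.279% of all rows were), *Npr3* itself. *Ostn*, the secreted ligand osteocrin that occupies this receptor, had a difference of 1.24 that did not pass (adjusted p = 0.241), with 1.83 in Δ1w and 0.65 in Δ2w muscle.

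*Tnfrsf12a*, the receptor of the cytokine TWEAK, rose by 2.24 (standard error 0.41, adjusted p = 0.0417), a call kept in 11 of 22 alternative analyses. Its 6 deleted mice spread from 11.55 to 13.46 with a median of 12.46, against 10.08 to 10.42 in control mice, and the spread was as wide in Δ1w as in Δ2w muscle (SD 0.88 in each, n = 3). *Amhr2*, the type II receptor of anti-Müllerian hormone, rose by 1.55 (adjusted p = 0.0227). *Tlr5*, the innate receptor for bacterial flagellin, rose by 1.28 (adjusted p = 0.0208) with 1.30 in Δ1w and 1.26 in Δ2w muscle. *Dlk1*, an imprinted transmembrane protein related to Notch ligands, rose by 1.39 (adjusted p = 0.0208).

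Among genes of adhesion, *Ctnna3* and *Itga4* rose in both models. *Ctnna3* encodes αT-catenin, which ties cadherins to actin and is best known from the intercalated disc of the heart. Its log2 signals were 10.70, 10.44 and 9.72 in Δ1w and 9.67, 10.20 and 10.18 in Δ2w muscle, against 8.14, 8.03 and 7.93 in control muscle. The 3 controls lay within 0.21 of each other and the nearest deleted mouse was 1.54 higher. *Ctnna3* rose by 2.12 (95% interval 1.65 to 2.59, adjusted p = 0.00219). *Itga4*, the α4 integrin chain that binds fibronectin and VCAM1, had 11.31, 11.23 and 11.07 in Δ1w and 11.93, 11.67 and 11.25 in Δ2w muscle, against 10.06, 9.89 and 9.94 in control muscle. It rose by 1.45 (adjusted p = 0.00931) and was among the few rises that were larger in Δ2w (1.66) than in Δ1w muscle (1.24). They were the 2 called of 18 measured genes of adhesion at the fiber surface (0.279% of all rows were), with a list median of 0.14. *Dag1*, which encodes dystroglycan, had a difference of −0.37 (adjusted p = 0.312).

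In the matrix itself, *Lama2*, the laminin α2 chain of the muscle basement membrane, rose by 0.85 (adjusted p = 0.0494), a call that was kept in 6 of 22 alternatives and lost under quantile normalization and median centring, where the adjusted p ran up to 0.211 over the 22. *Cilp*, a matrix protein of cartilage and tendon, had 11.83, 12.89 and 13.05 in Δ1w and 11.61, 11.44 and 11.66 in Δ2w muscle, against 9.61, 9.81 and 9.98 in control muscle. It rose by 2.28 (standard error 0.34, adjusted p = 0.0184). Δ1w replicate 1 was above the Δ2w mice but closer to them than to the other Δ1w mice. *Fam20b*, a kinase that phosphorylates xylose while glycosaminoglycan chains are begun, rose by 1.03 (adjusted p = 0.0235). Of 13 measured tendon and cartilage matrix genes *Cilp* was the 1 called (0.279% of all rows were). The median of the list was 0.10. Fibroblast and matrix genes lay on the higher side together without any call. All 14 measured members had a positive change with a median of 0.64 (0.98 in Δ1w and 0.39 in Δ2w muscle, and a pooled 0.37 without Δ1w replicates 5 and 8), 8 had an unadjusted p under 0.05, and 0 were called. Of all 22206 rows, 11086 had a positive change and 11.1% an unadjusted p under 0.05. In 3 of the 14 genes all deleted mice were above all controls (3.21% of all rows were). The mean log2 signal of these 14 genes was 13.47 to 14.76 over deleted mice and 13.06 to 13.65 over controls, with overlap. None of the list's members had a mean under 6, and its part in the rises of *Cilp*, *Lama2* and *Fam20b* was not tested.

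Stress and protein quality genes gave some of the tightest changes. *Hspa1l*, a member of the Hsp70 chaperone family, had 8.55, 8.79 and 8.89 in Δ1w and 8.67, 8.61 and 8.41 in Δ2w muscle, against 7.33, 7.08 and 6.96 in control muscle. It rose by 1.53 (standard error 0.15, 95% interval 1.20 to 1.86, adjusted p = 0.00219). The deleted mice lay close together and the lowest was 1.08 above the highest control. *Hspa1l* shares much sequence with other Hsp70 genes, and no source used here says how the probes divide them. *Uchl1*, a ubiquitin hydrolase known mainly from neurons, had 7.48, 8.00 and 7.60 in Δ1w and 6.997, 7.35 and 7.62 in Δ2w muscle, against 6.02, 5.49 and 5.88 in control muscle. It rose by 1.71 on the log2 scale (adjusted p = 0.00561). *Dnaja4*, an Hsp40 co-chaperone that was not on the list, rose by 1.33 (adjusted p = 0.0227). Of the 16 measured heat shock and protein quality genes, *Hspa1l* and *Uchl1* were the 2 called (0.279% of all rows were). In that list 12 had a positive change and the median was 0.26. *Hspb7*, *Hsp90aa1* and *Hspb8*, chaperones that are abundant in muscle, had differences of 0.96, 0.80 and 0.72 that did not pass (adjusted p = 0.133, 0.160 and 0.223).

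The list of Z-disc and mechanical stress genes had 1 call, where 0.279% of all rows were called. The Z-disc is where thin filaments are anchored and tension is sensed. *Mustn1*, a small nuclear protein of musculoskeletal tissue, had 16.63, 16.61 and 16.69 in Δ1w and 16.49, 16.78 and 17.01 in Δ2w muscle, against 15.37, 15.74 and 15.17 in control muscle. It rose by 1.28 (standard error 0.17, adjusted p = 0.00931). The Δ1w mice lay within 0.08 of each other, inside the range of the Δ2w mice. Of 18 measured Z-disc and mechanical stress genes, 16 had a positive change, 10 had all deleted mice above all controls (3.21% of all rows did) and the median was 0.45, whereas only *Mustn1* was called. *Ankrd2* and *Csrp3*, a stretch-induced ankyrin repeat protein and the muscle LIM protein, had differences of 1.75 and 2.08 that missed the threshold (adjusted p = 0.146 and 0.153). *Xirp1*, which encodes the Xin actin-binding protein of remodelling fibers, had differences of 2.63 in Δ1w and 0.99 in Δ2w muscle (pooled adjusted p = 0.187). *Sorbs2*, an adaptor of the Z-disc and of stress fibers outside the list, rose by 1.41 (adjusted p = 0.0357).

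*Myoz2*, or calsarcin-1, a Z-disc protein of slow fibers and heart, had 18.05, 18.59 and 18.44 in Δ1w and 17.88, 17.84 and 18.09 in Δ2w muscle, against 17.14, 17.09 and 16.96 in control muscle, and rose by 1.08 (adjusted p = 0.0282). It was the 1 called of 14 slow fiber genes (0.279% of all rows were). The pooled median of that list, 0.87, stood for a median of 1.39 in Δ1w and −0.09 in Δ2w muscle, so it did not describe both models. *Sln* (sarcolipin, which inhibits the calcium pump) had differences of 3.70 in Δ1w and 0.34 in Δ2w muscle, and *Myh7* (slow myosin) of 2.75 and −0.57 in the same order, and both overlapped control in the pooled comparison. The 14 fast fiber genes had a median of −0.02 and 0 calls, and 4 of them had means within 0.5 of the top of the scale, where a difference may not register.

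Excitation and secretion were represented by a few called genes. *Kcnh2*, the ERG1 potassium channel that repolarises heart muscle, had 8.69, 8.98 and 9.01 in Δ1w and 9.14, 9.23 and 8.73 in Δ2w muscle, against 7.69, 7.17 and 7.43 in control muscle. It rose by 1.53 (95% interval 1.16 to 1.90, adjusted p = 0.00319) and its models interleaved, with a Δ1w minus Δ2w difference of −0.14 (95% interval −0.57 to 0.30). It was the 1 called of 17 ion channel genes (0.279% of all rows were), whose median was −0.19. *Panx1*, a large-pore channel that releases ATP, was just outside the threshold at 1.18 (adjusted p = 0.077), with 0.86 in Δ1w and 1.49 in Δ2w muscle. *Entpd2*, an ectoenzyme that breaks down extracellular ATP, rose by 0.77 (adjusted p = 0.0357), the smallest of the called changes. *Rab27b*, a GTPase of vesicle secretion, rose by 1.53 (adjusted p = 0.0118). *Atp1b4*, an X-linked relative of sodium pump subunits that resides in the muscle nuclear envelope in placental mammals, had 11.36, 12.27 and 12.23 in Δ1w and 11.21, 10.98 and 11.95 in Δ2w muscle, against 9.88, 9.85 and 9.26 in control muscle, and rose by 2.004 (adjusted p = 0.0179).

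Among metabolic enzymes, *Aldh1a1*, which makes retinoic acid from retinaldehyde, rose by 1.77 (adjusted p = 0.0227), and its Δ2w mice were close together at 13.43, 13.45 and 13.48. *Odc1*, the first enzyme of polyamine synthesis, had 12.29, 12.51 and 12.74 in Δ1w and 12.04, 12.36 and 12.13 in Δ2w muscle, against 11.09, 11.14 and 10.91 in control muscle. It rose by 1.30 (adjusted p = 0.00931), or 2.46-fold. *Tbc1d1*, a Rab GTPase-activating protein of glucose uptake, rose by 0.82 (adjusted p = 0.0476, kept in 7 of 22 alternatives), and its gap of 0.33 between the lowest deleted and the highest control mouse was the narrowest among called genes. *Idh2*, the mitochondrial NADP-dependent isocitrate dehydrogenase, had 11.51, 10.69 and 11.23 in Δ1w and 11.11, 10.59 and 10.82 in Δ2w muscle, against 12.06, 12.33 and 12.04 in control muscle, and fell by 1.15 (adjusted p = 0.0357). Of 17 oxidative phosphorylation genes 2 had a positive change, 6 had all deleted mice below all controls (2.85% of all rows did), the median was −0.23 and 0 were called. *Sdha*, a subunit of complex II, had a difference of −0.63 (adjusted p = 0.147). *Plin3*, a coat protein of lipid droplets, fell by 1.16 (adjusted p = 0.0208). *Slc38a3*, a glutamine transporter, fell by 1.03 (adjusted p = 0.0235).

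**Figure D2:**
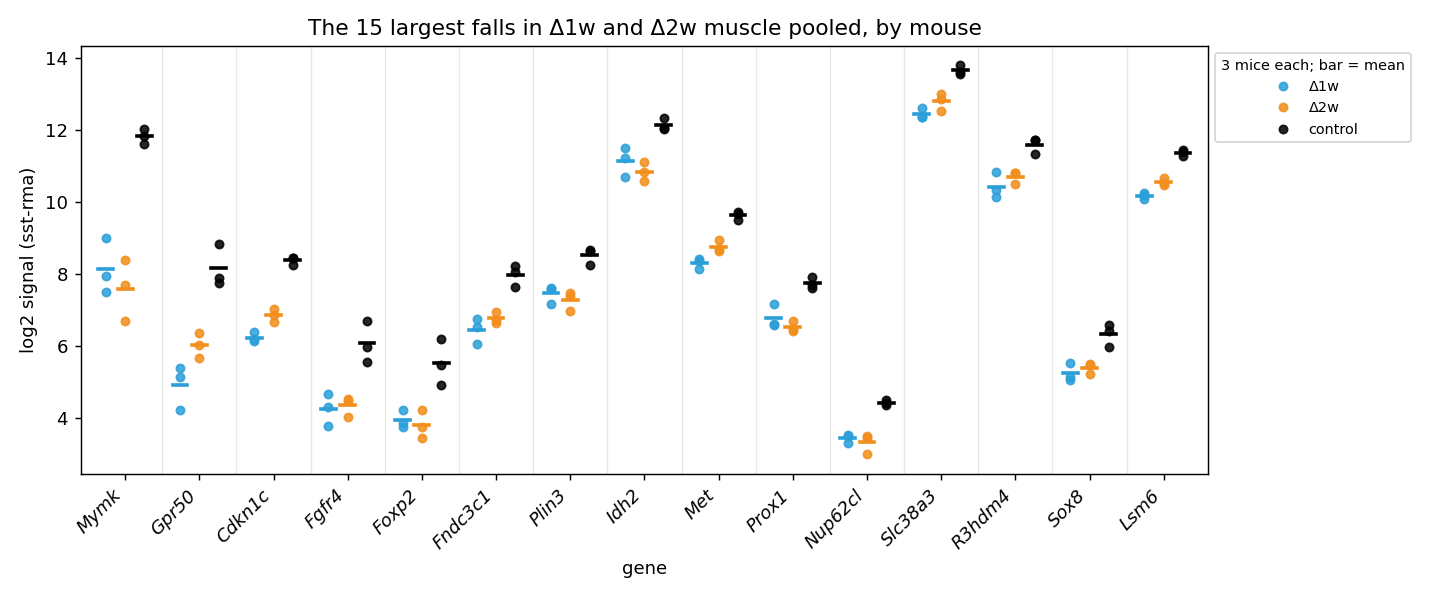
Log2 signal of the 15 genes with the largest called falls, drawn as for the rises, with Δ1w, Δ2w and control from left to right. In each gene all 6 deleted mice lie below all 3 controls, and *Fgfr4*, *Foxp2*, *Nup62cl* and *Sox8* have means under 6 over the 9 mice.

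The falls included regulators of growth and differentiation. *Cdkn1c*, the imprinted cyclin-dependent kinase inhibitor p57 that myoblasts make as they leave the cell cycle, had 6.14, 6.17 and 6.36 in Δ1w and 6.86, 6.67 and 7.01 in Δ2w muscle, against 8.44, 8.24 and 8.43 in control muscle. It fell by 1.84 (95% interval −2.28 to −1.39, adjusted p = 0.00319), and each Δ1w mouse was below each Δ2w mouse. Of 10 measured imprinted growth genes, *Cdkn1c* fell and *Dlk1* rose (0.279% of all rows were called). The list median of 0.01 changed sign when arrays were centred on their medians (−0.02). *Ndn* and *Igf2*, the growth suppressor necdin and the growth factor IGF2, had differences of 0.98 and −0.47 that did not pass (adjusted p = 0.102 and 0.276). *Gpr50*, an X-linked orphan receptor related to melatonin receptors, had 5.38, 4.22 and 5.12 in Δ1w and 6.36, 6.01 and 5.66 in Δ2w muscle, against 7.89, 7.75 and 8.83 in control muscle, and fell by 2.69 on the log2 scale (adjusted p = 0.0179).

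Transcription factors among the falls were *Prox1*, *Foxp2* and *Sox8*. *Prox1*, a homeobox factor that drives slow fiber genes in mouse muscle, had 6.59, 6.56 and 7.15 in Δ1w and 6.46, 6.68 and 6.41 in Δ2w muscle, against 7.91, 7.59 and 7.69 in control muscle, and fell by 1.09 (adjusted p = 0.0227). It was the 1 called of 18 genes for fiber type and growth transcription factors (0.279% of all rows were). The list median was −0.20. *Foxp2*, a forkhead repressor best known from the brain, fell by 1.65 (adjusted p = 0.0208) and *Sox8* by 1.01 (adjusted p = 0.0357). *Trp63*, the p53 relative p63, moved the other way and rose by 1.40 (adjusted p = 0.0374).

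Both *Fgfr4* and *Met*, receptors through which growth factors act on muscle progenitors, fell. *Fgfr4*, a fibroblast growth factor receptor of myoblasts, had 4.65, 4.30 and 3.77 in Δ1w and 4.46, 4.03 and 4.52 in Δ2w muscle, against 5.96, 5.55 and 6.69 in control muscle, and fell by 1.78 (adjusted p = 0.0169). *Met*, the receptor of hepatocyte growth factor and an activator of satellite cells, had 8.14, 8.42 and 8.35 in Δ1w and 8.63, 8.92 and 8.69 in Δ2w muscle, against 9.48, 9.67 and 9.72 in control muscle, and fell by 1.10 (adjusted p = 0.0227). *Hgfac*, the protease that activates hepatocyte growth factor, fell by 0.79 (adjusted p = 0.0375), with all 9 mice at 4.73 or less. Of 16 satellite cell genes *Fgfr4* was the 1 called (0.279% of all rows were), 7 had a positive change and the median was −0.17. *Calcr* and *Pax7*, the calcitonin receptor of quiescent cells and the factor that defines satellite cells, had differences of −0.89 and −0.43 (adjusted p = 0.066 and 0.352). The largest positive differences of the list were 0.37 for *Itga7* and 0.18 for *Spry1* (adjusted p = 0.709 and 0.795). The mean signal of the list was 6.93 to 7.14 over deleted mice and 7.20 to 7.43 over controls. *Pax7*, *Myf5*, *Calcr*, *Hes1* and *Fgfr4* had means under 6, and a change in the number of satellite cells was not tested. Of 15 myogenic regulators and fusion genes *Mymk* was the 1 called, with a median of −0.28. *Myog*, the factor of terminal differentiation, had a difference of −0.91 (adjusted p = 0.223).

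Low signals limit part of these calls. Over the 9 arrays the median gene row was at 6.37 to 6.44, and 10087 of the 22206 gene rows had a mean under 6. Among the 57 called genes 6 did, namely *Prelid2*, *Hgfac*, *Sox8*, *Nup62cl*, *Foxp2* and *Fgfr4*. On *Nup62cl*, a relative of the nuclear pore protein Nup62, the deleted mice were at 2.98 to 3.52 against 4.34 to 4.48 in controls, which was a fall by 1.04 (adjusted p = 0.0179). The table also holds 5222 rows named as negative controls, whose median was 5.77 to 6.25 and whose 95th percentile was 9.55 to 10.14 over the arrays. Set against the 95th percentile of its own array, 19 of the 57 genes were above it in all 9 mice and 21 in none, among them *Uchl1*, *Hspa1l*, *Kcnh2*, *Cdkn1c*, *Gpr50*, *Prox1*, *Met*, *Amhr2* and *Tlr5*. In another 9, *Ctnna3* and *Dlk1* among them, no control mouse was above it, and for *Mymk* no deleted mouse was. For genes of these 3 kinds the log2 change has no linear fold beside it. Set against the median of the negative controls, 48 genes were above it in all 9 mice and 3 (*Hgfac*, *Nup62cl* and *Foxp2*) in none, while the 3 controls were not above it for *Uchl1* and 5 of the 6 deleted mice were not for *Gpr50*. For *Fgfr4* all 6 deleted mice and 2 of the 3 controls were not above that median, and for *Sox8* all 6 and 1. For *Prelid2* 4 deleted mice and all 3 controls were not. At the bright end, *Myoz2* and *Mustn1* stayed below the highest signal in the table, 19.93.

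**Figure D3:**
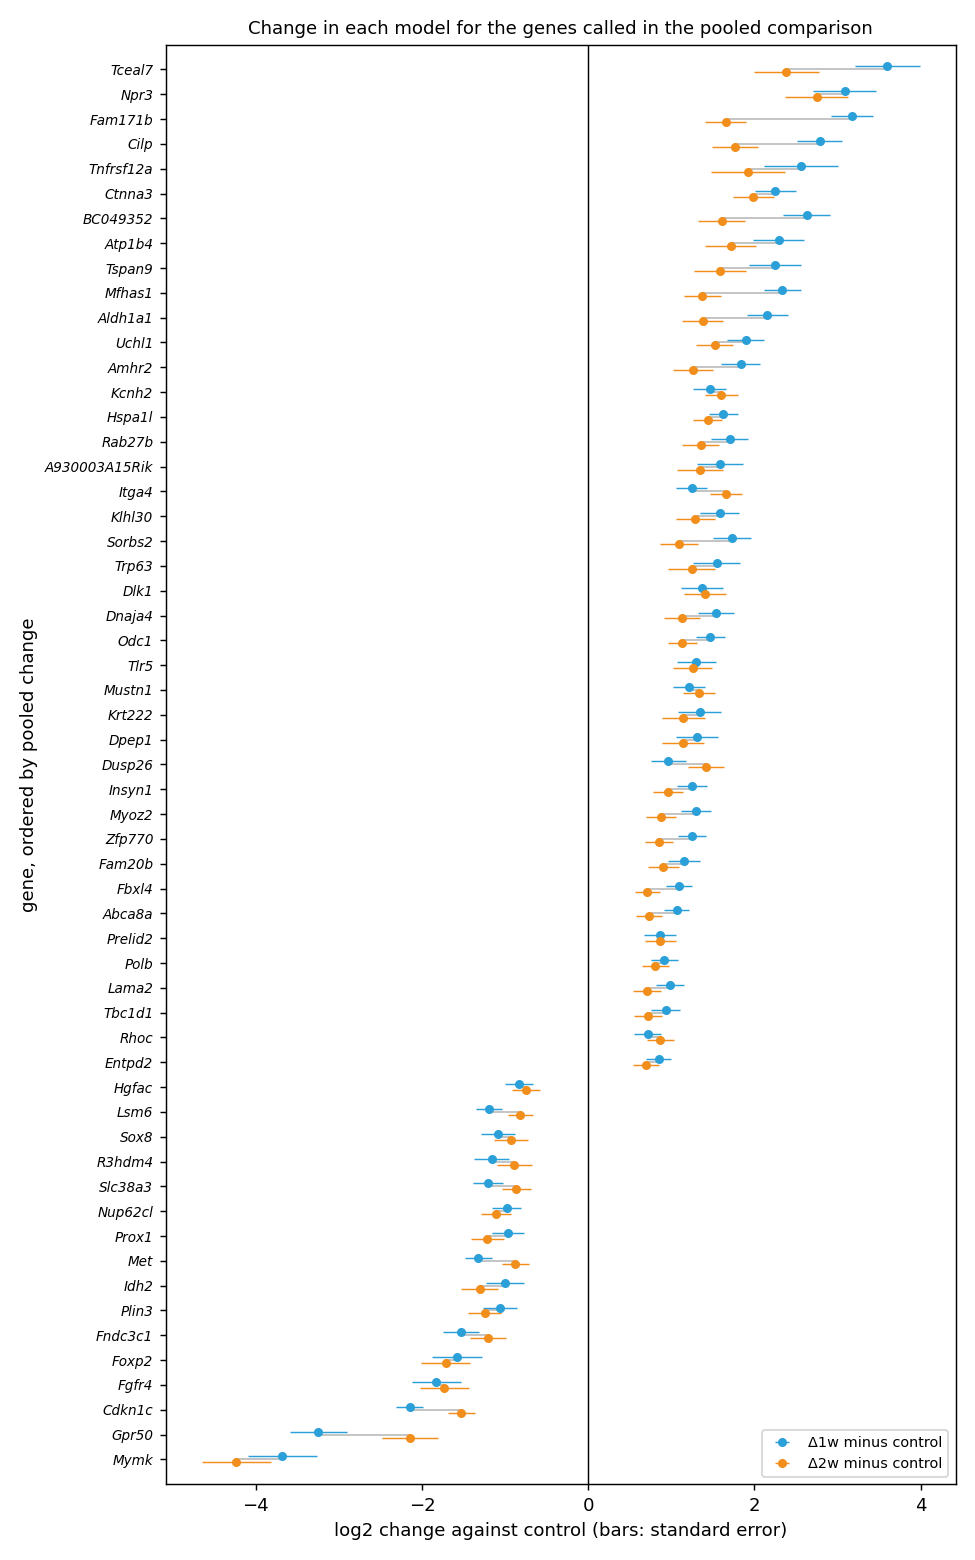
Log2 change against control in Δ1w and Δ2w muscle for the 57 called genes, from the fit with 3 groups, with bars of 1 standard error and genes ordered by pooled change. Both models lie on the same side of 0 in each gene, as follows from groups that do not overlap, and the distance between the dots is greatest in *Fam171b* (3.17 and 1.66).

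The pooled comparison counts the difference between the models as error, so called genes are those in which it is small beside the change. Both models were set against the same 3 controls and are therefore given side by side. In the 57 genes the smaller of both changes was a median 0.771 of the larger one, it was at least 0.8 of it in 24 genes and under 0.5 in 0. The change was larger in Δ1w muscle in 34 of 41 rises and in 10 of 16 falls. Set against control in the fit with 3 groups, 59 of the 62 called rows passed in Δ1w muscle alone and 10 in Δ2w muscle alone. Tested directly in a fit with 3 groups, Δ1w minus Δ2w passed an adjusted p under 0.05 in 1 of 22206 rows (0.00450%), which was not among the 57, and the smallest adjusted p among the 57 was 0.106. An unadjusted p under 0.05 was reached by 1841 rows (8.29%) and by 16 of the 57 genes.

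The genes with the closest values in both models included *Dlk1*, which was at 9.94 ± 0.42 in Δ1w and 9.97 ± 0.30 in Δ2w muscle, against 8.56 ± 0.35 in control muscle (SD, n = 3 each). Its Δ1w minus Δ2w difference was −0.03 (95% interval −0.59 to 0.52), so a difference inside that interval was not resolved. For *Tlr5* the difference was 0.05 (95% interval −0.46 to 0.55), for *Fgfr4* −0.09 (−0.74 to 0.55) and for *Mustn1* −0.12 (−0.55 to 0.30). At the other end stood *Fam171b*, a membrane protein whose role is not settled. It was at 10.47, 11.52 and 10.998 in Δ1w and 9.81, 9.31 and 9.31 in Δ2w muscle, against 7.80, 7.87 and 7.79 in control muscle, a pooled rise of 2.41 (adjusted p = 0.0357) with a Δ1w minus Δ2w difference of 1.52 (95% interval 0.98 to 2.06). The interval of the difference also lay above 0 for *Tceal7* (1.21, 0.36 to 2.06), *Cilp* (1.02, 0.42 to 1.62), *Mfhas1* (0.97, 0.48 to 1.45) and *Aldh1a1* (0.78, 0.23 to 1.32), and below 0 for *Gpr50* (−1.10, −1.85 to −0.36). These intervals are per gene and were not adjusted for the number of genes.

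*Mfhas1*, a leucine-rich repeat protein, and *Tspan9*, a tetraspanin that organises membrane proteins, rose by 1.85 and 1.92 (adjusted p = 0.0234 and 0.0227). Δ1w replicate 1 was the lowest Δ1w mouse in both, at 9.09 and 14.25, and for *Tspan9* it lay inside the range of the Δ2w mice. Other rises were smaller and tight. *Polb*, the DNA polymerase of base excision repair, was at 11.91 ± 0.17 in Δ1w and 11.80 ± 0.02 in Δ2w muscle, against 10.99 ± 0.12 in control muscle (SD, n = 3 each). *Fbxl4*, a mitochondrial F-box protein, rose by 0.90 (adjusted p = 0.0357, kept in 11 of 22 alternatives). *Lsm6*, a core protein of the U6 small nuclear RNA, had 10.25, 10.07 and 10.18 in Δ1w and 10.51, 10.66 and 10.47 in Δ2w muscle, against 11.43, 11.29 and 11.38 in control muscle, and fell by 1.01 (adjusted p = 0.0227). The Δ1w mice lay below the Δ2w mice without overlap.

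**Figure D4:**
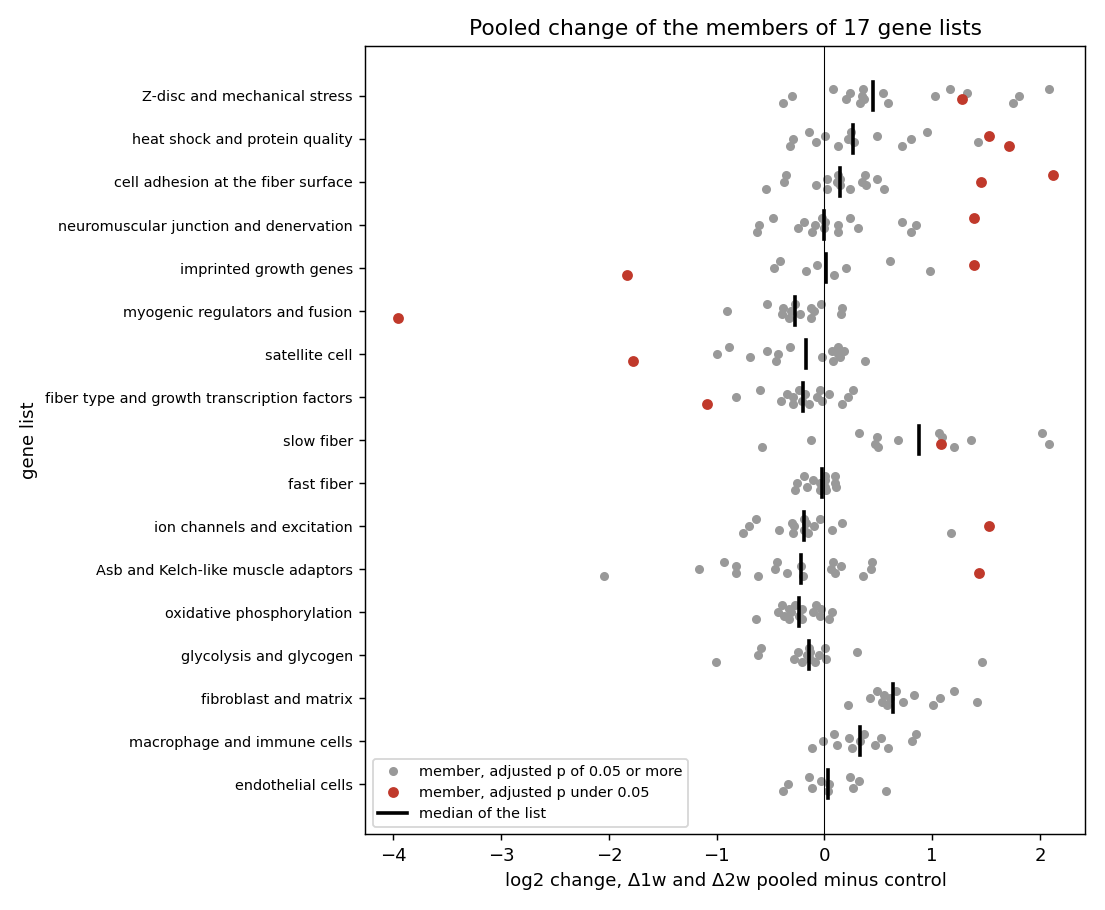
Pooled log2 change of each measured member of 17 gene lists, with called members in red and the median of each list as a black bar. The fibroblast and matrix list has all 14 members above 0 with 0 calls, and the slow fiber median (0.87) is the highest of those drawn.

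The lists of synapse genes and of muscle ubiquitin ligase adaptors had 1 call each, where 0.279% of all rows were called. Of 18 genes of the neuromuscular junction and denervation 1 was called, *Dlk1*, with a list median of −0.00075, and *Ache*, the acetylcholinesterase of the synapse, had a difference of 0.85 (adjusted p = 0.069). *Klhl30*, a Kelch-repeat protein of muscle, had 11.59, 11.86 and 12.24 in Δ1w and 11.84, 11.20 and 11.76 in Δ2w muscle, against 10.64, 10.17 and 10.13 in control muscle, and rose by 1.44 (adjusted p = 0.0179). It was the 1 called of 19 Asb and Kelch-like genes, whose median was −0.22, and *Asb15*, a substrate adaptor of a cullin ligase, had a difference of −2.04 (adjusted p = 0.055). Macrophage and immune cell genes had a median of 0.33 and 11 of 13 positive changes with 0 calls. Their mean was 7.89 to 8.61 over deleted mice and 7.66 to 7.87 over controls, without overlap, and their part in the rise of *Tlr5* was not tested. Of 29 measured genes that the study labelled in its heat maps of these same arrays, 4 rose (*Ctnna3*, *Npr3*, *Mustn1* and *Tceal7*) and 1 fell (*Prox1*), a list chosen on these samples and so not independent of them.

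The upstream sequences of 4 rises, chosen by hand, are printed as examples. Each holds a short motif known from muscle or stress genes, as do the windows of other called rises. The 250 bases before the RefSeq start of transcription are given on the strand of the gene (GRCm38.p6), with the motif in capitals. In *Mustn1* (chr14:30879007-30879256, plus strand) and *Uchl1* (chr5:66675871-66676120, plus strand) the capitals mark GAANNTTC, the core of a heat shock element, which begins 166 and 162 bases before the start. In *Hspa1l* (chr17:34972453-34972702, plus strand) they mark CATTCC read on the other strand, the MCAT motif of TEAD factors, 247 bases before the start. In *Itga4* (chr2:79255176-79255425, plus strand) they mark the E-box CAGCTG of myogenic factors, 125 bases before the start.
Mustn1: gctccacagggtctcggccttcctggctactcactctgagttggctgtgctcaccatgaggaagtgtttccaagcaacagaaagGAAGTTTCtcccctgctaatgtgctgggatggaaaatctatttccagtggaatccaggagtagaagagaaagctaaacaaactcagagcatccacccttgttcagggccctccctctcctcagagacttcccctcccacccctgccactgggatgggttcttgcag
Uchl1: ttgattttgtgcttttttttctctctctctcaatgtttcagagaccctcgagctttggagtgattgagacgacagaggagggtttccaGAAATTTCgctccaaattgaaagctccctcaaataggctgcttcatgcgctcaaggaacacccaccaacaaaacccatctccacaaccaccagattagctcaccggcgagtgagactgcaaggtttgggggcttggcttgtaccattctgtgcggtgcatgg
Hspa1l: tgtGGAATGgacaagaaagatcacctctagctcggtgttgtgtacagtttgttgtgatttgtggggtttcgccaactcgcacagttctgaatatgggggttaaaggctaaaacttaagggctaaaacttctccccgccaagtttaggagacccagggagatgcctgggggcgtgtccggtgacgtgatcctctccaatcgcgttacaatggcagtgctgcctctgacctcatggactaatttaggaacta
Itga4: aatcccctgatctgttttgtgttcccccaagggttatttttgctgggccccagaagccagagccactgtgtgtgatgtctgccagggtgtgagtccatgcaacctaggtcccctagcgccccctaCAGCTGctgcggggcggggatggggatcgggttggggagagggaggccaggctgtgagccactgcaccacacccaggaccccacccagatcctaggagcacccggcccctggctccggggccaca

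A window was found for 44 of the 57 called genes, 32 that rose and 12 that fell, and both strands were searched. MCAT occurred in 7 of the 32 (21.9%) and 0 of the 12, against 12.6% of all 27025 windows, and the E-box in 7 (21.9%) and 1 (8.33%), against 12.8%. The heat shock element occurred in 3 (9.38%) and 1, against 6.78%, and TGANTCA, the AP-1 site, in 3 (9.38%) and 1, against 6.87%. The CArG box of serum response factor was found in 1 of the 32 windows (3.13%) and 0 of the 12, against 1.40%, and the MEF2 site in 2 (6.25%) and 0, against 3.01%. These are matches of letters in a short window, they were not tested, and they do not show that a factor binds.

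Pax7creER was in all 3 Δ1w, all 3 Δ2w and 0 of 3 control mice, and the labels record tamoxifen only for deleted mice. Fewer nuclei, Cre, tamoxifen as labelled and loss of *Mymk* in satellite cells therefore cannot be told apart here. The mice also differed in other ways than the labelled deletion. The names of 2 control and all 3 Δ2w mice share a prefix that the sources do not explain, whereas Δ1w and control mice share none. Within these 5 mice, 1 row was called, that of *Npr3*, with a change of 2.47 (adjusted p = 0.0449). There the difference was −4.13 for *Mymk*, 1.99 for *Ctnna3*, 1.42 for *Hspa1l*, 1.47 for *Kcnh2* and −1.59 for *Cdkn1c*. Within the 5 mice these genes did not pass (adjusted p from limma 0.0855 for *Mymk*, *Ctnna3* and *Cdkn1c*, 0.124 for *Hspa1l* and 0.131 for *Kcnh2*). With all 3 controls, Δ2w muscle differed by −4.23, 1.99, 1.44, 1.60 and −1.53 for these genes in the same order. Both comparisons share the 3 Δ2w mice and 2 controls, so close values follow from the design and do not test the prefix. An index of circadian clock genes was at −1.44 and −2.01 in Δ1w replicates 5 and 8 and at 0.90 to 2.16 in the other 7 mice. With that index in the fit 33 rows were called, 28 of them among the 62. Without those 2 mice 23 were called, 20 of them among the 62. Genes on the Y chromosome were low in 1 mouse of each group, and 52 rows were called with their level in the fit.

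Leaving out a control moved the count of calls more than leaving out a deleted mouse. When control replicate 1, 2 or 6 was left out, 18, 10 and 7 rows were called, whereas leaving out 1 deleted mouse gave 38 to 58. The genes called in all 9 of these fits were *Npr3*, *Ctnna3*, *Kcnh2*, *Hspa1l*, *Cdkn1c* and *Mymk*, and 31 of the 57 were called in each of the 6 fits that left out a deleted mouse. At the other end *Prelid2*, *Rhoc*, *Entpd2* and *Hgfac*, with changes between −0.79 and 0.86, were called in 0 of the 9. Among others, *Fbxl4*, *Sox8* and *R3hdm4* were called in 1, *Idh2* and *Trp63* in 2, and *Tnfrsf12a* and *Fam171b* in 3. The number of arrays limits the precision of all these values.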

How the data were processed

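TA muscle of 9 mice was measured on 1 Clariom S Mouse array each. The authors made the deposited log2 signals by sst-rma (Signal Space Transformation with Robust Multi-Array Average), which adjusts background, normalizes across arrays and gives 1 value per gene. Affymetrix Expression Console is named in the submitters' processing notes and the Transcriptome Analysis Console in the methods. No source used here gives the genome build behind the probes. Of 22206 gene rows, 19572 carry 1 symbol, 2634 none and 0 several by the platform annotation, and 55 symbols have several rows, of which the one with the highest mean was used. The 6640 control rows stayed out of the fits, and 5222 of them, named as negative controls, served to describe low signals. The array scans were not used here.

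The 6 Δ1w and Δ2w arrays were fitted against the 3 control arrays with limma 3.58.1 (lmFit and eBayes, two-sided) in R 4.3.3 (7 residual degrees of freedom, unmoderated). The adjusted p-values printed come from limma after Benjamini-Hochberg over all 22206 rows, and a row was called under 0.05. Values for each model and their difference came from a fit with 3 groups. The members, the 46 gene lists and the tests were chosen with earlier results of these data known. Genes named are the 15 called genes that rose most and the 15 that fell most, called list members (at most 4 a list) or otherwise 2 members with the smallest p, the 8 most alike and 8 least alike in both models, and genes the study names. Other called genes, and *Dag1*, *Hspb7*, *Hsp90aa1*, *Hspb8*, *Ankrd2*, *Csrp3*, *Ndn*, *Igf2*, *Calcr*, *Pax7*, *Itga7*, *Spry1*, *Ache* and *Asb15*, were chosen after their values were seen. The fit was tested on simulated data. Promoter windows came from RefSeq (GRCm38.p6). Labels, which give 1 mouse per array, define the replicates. Alternatives were leaving out each mouse, other scaling, low signals left out, other variance models, array weights, blocks and covariates, and an unpaired t-test. The study's general statistics name that t-test, whereas for the arrays its methods name the Transcriptome Analysis Console without test settings. Alternatives chosen after seeing the data were leaving out Δ1w replicates 5 and 8 together and the t-test without adjustment. Plots used Python 3.11.15 and matplotlib 3.10.9.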

Additional observations from a re-analysis of the deposited data

Results flagged for a closer look

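In 3 of the 57 called genes 1 deleted mouse stood apart from the other 5 by most of their range (Dixon's criterion at 95%), and chance gives about 1 such flag in 20 groups. *Rab27b* was at 7.22 in Δ2w replicate 4 and at 7.88 or more in the other 5 deleted mice, against 6.54 or less in controls. *A930003A15Rik*, a noncoding transcript, was at 11.80 in Δ1w replicate 5, with the next deleted mouse at 11.28. *Prox1* was at 7.15 in Δ1w replicate 8, with the next at 6.68, against 7.59 or more in controls. No such mouse crossed into the range of the controls.

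*Rgcc*, a regulator of the cell cycle, was the 1 gene row in which Δ1w minus Δ2w passed an adjusted p under 0.05 in the fit with 3 groups, a count that ran up to 58 when 1 mouse was left out. It had 11.10, 11.51 and 11.50 in Δ1w and 8.99, 9.35 and 9.84 in Δ2w muscle, against 8.75, 8.56 and 8.67 in control muscle. Δ1w minus Δ2w was 1.98 (adjusted p = 0.028 from limma), and the pooled comparison did not call it (1.72, adjusted p = 0.243).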

How the results depend on the processing

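The pooled comparison called 62 rows and ranged from 7 to 58 when 1 mouse was left out (18, 10 and 7 without control replicate 1, 2 and 6, and 38 without Δ1w replicate 5). A fit with 3 groups and the mean of both models called 144, a trended and robust variance 94 and the clock index as a covariate 33. A log2 change of at least 1 at an unadjusted p under 0.05 gave 169. An unpaired t-test, which is not named as the study's array test, called 0 after adjustment and 2277 before it. Δ1w mice alone gave 312, Δ2w mice alone 10, the shared name prefix 1, and the mice without Δ1w replicates 5 and 8 together gave 23. The count stayed within 1.5 times 62 under quantile normalization (63), median centring (60), a mean signal of at least 6 (74), array weights (55), the name prefix as a block (68), the LacZ allele (64) and Y-linked signal (52) as covariates. Numbers in the names mark mice and do not pair the groups, since control shares 1 number with Δ1w and 1 with Δ2w. With the number as a replicate block 58 rows were called. For Δ1w against Δ2w, 1 row was called. It was 0 to 58 when 1 mouse was left out (58 without Δ1w replicate 1), 10 with a trended and robust variance, 2 with Y-linked signal, and 0 with the prefix block, the LacZ allele or the clock index.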

Other observations

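*Ucp1*, the uncoupling protein of brown fat, was at 7.24 in control replicate 6 and at 3.01 to 3.60 in the other 8 mice, so its pooled difference of −1.50 rested on that control. *Ppp1r3c*, which directs a phosphatase to glycogen, was at 16.64, 16.66 and 16.80 in Δ1w and 15.23 to 16.34 in the 3 Δ2w mice, against 15.24, 14.35 and 14.84 in control muscle (difference 1.47, adjusted p = 0.086 from limma). *Gpx1*, the main cytosolic glutathione peroxidase, was at 14.05, 14.16 and 14.35 in Δ1w and 13.69, 13.62 and 13.78 in Δ2w muscle, against 12.91, 12.84 and 13.17 in control muscle (difference 0.97, adjusted p = 0.052). *Slc43a1*, an amino acid transporter, was at 8.19, 8.14 and 7.94 in Δ1w and 8.70, 8.71 and 8.55 in Δ2w muscle, against 9.19, 9.50 and 9.28 in control muscle (difference −0.95, adjusted p = 0.071). Each of these missed the threshold, and in *Gpx1* and *Slc43a1* the deleted mice did not overlap the controls.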
